A study of Mus musculus with 36 samples.

Results

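Cytosolic ribosomal protein genes encode the protein components of the ribosomes that translate nuclear mRNA. They were taken from the mouse count table by symbol: Rpl or Rps followed by a digit, plus Rplp0, Rplp1, Rplp2 and Rpsa. Symbols containing -ps (processed copies), S6 kinases (Rps6k) and the copies Rpl10l, Rpl3l, Rpl22l1, Rpl39l, Rpl7l1, Rps27l and Rps19bp1 were left out. This gave 85 genes of 51734 symbols, 49 of the large subunit and 36 of the small subunit. GENCODE M21 annotates 79 of them as protein coding and 6 (Rpl37rt, Rps4l, Rps12l1, Rpl6l, Rps3a2 and Rps3a3) as pseudogenes. Rps12l1 had 0 counts in all 18 libraries, and the other 84 were tested.

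E14, a mouse embryonic stem cell line, was measured by mRNA sequencing as stem cells (ESC below) and, after retinoic acid, as neural precursors (NPC below). At each stage 3 genotypes had 3 replicates each: wild type (WT), MLL3/4 dCD (dCD below), a line without MLL3 and MLL4 catalytic activity, and MLL2 dTAG (MLL2dTAG below), a line whose MLL2 carries a degron. The 3 MLL proteins methylate histone H3 at lysine 4, and the compound dTAG-13 directs a dTAG-tagged protein to degradation. Per the labels, all 6 groups received dTAG-13, WT included, and the dose in NPC was 2 µM from day 1 to harvest on day 4; for ESC no duration is given. Each genotype is a cell line of its own, so the edit and the line cannot be told apart. The labels do not say whether replicates were separate cultures, and p-values then measure only the spread between these samples.

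A ribosome joins a small subunit, which decodes mRNA, to a large subunit, which forms peptide bonds, and each ribosomal protein is present in about equal amounts. Many of their mRNAs begin with a run of pyrimidines (a 5′ terminal oligopyrimidine motif, TOP) through which mTOR signalling adjusts their translation. Pluripotent cells and progenitors spend much of their RNA synthesis on ribosomes, and ribosomal protein genes have many processed copies across the genome.

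Promoter sequences show what the members share at their start sites. RefSeq promoters of GRCm38.p6 (250 bases before to 50 after the annotated start) were matched for 60 of the 85 members. A pyrimidine run, defined as a C followed by at least 4 more pyrimidines and beginning within 5 bases of the start on the sense strand, was present in 28 of them (46.7%), against 21.2% of all 27025 genes in the table. The motif CCGGAAG, on either strand, was present in 24 members (40.0%) against 9.93% of all genes, and GGGCGG in 36 members against 38.2% of all genes. Mitochondrial ribosomal protein genes held the pyrimidine run in 24.6% and CCGGAAG in 37.7% of 69 matched genes. AAGATGG was found in 15.0% of members against 7.28% of all genes, and TATAAA in 6 members against 15.7% of all genes. The 5 sequences below show a long run, a run with CCGGAAG, and no run, each as 60 bases before and 20 bases from the start, 5′ to 3′ on the gene's strand. Capitals mark CCGGAAG and the pyrimidine run, taken as the match that begins nearest the start. They are Rps6 (chr4:86857348-86857427, minus strand), Rps10 (chr17:27635225-27635304, minus), Rpl38 (chr11:114668520-114668599, plus), Rpl12 (chr2:32961652-32961731, plus) and Rps4x (chrX:102189372-102189451, minus).
Rps6: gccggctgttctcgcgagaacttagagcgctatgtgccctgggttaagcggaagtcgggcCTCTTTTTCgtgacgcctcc
Rps10: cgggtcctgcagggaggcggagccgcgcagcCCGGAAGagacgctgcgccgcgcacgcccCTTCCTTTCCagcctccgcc
Rpl38: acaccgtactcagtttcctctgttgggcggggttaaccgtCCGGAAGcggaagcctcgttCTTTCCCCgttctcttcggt
Rpl12: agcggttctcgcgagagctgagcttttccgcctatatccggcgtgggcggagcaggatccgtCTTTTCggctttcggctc
Rps4x: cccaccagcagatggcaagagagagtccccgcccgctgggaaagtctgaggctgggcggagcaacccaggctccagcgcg

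In these windows the marked run began at the first base in Rps6, Rps10 and Rpl38, and at base 3 in Rpl12. Pyrimidines also lie directly before the capitals in these genes and are left in lower case. The full stretch of pyrimidines thus begins earlier than the marked run. No such run was found in Rps4x. A match is a description of these letters and not evidence of a site in use.

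Rps27 and its retrocopy Rps27rt are printed because they share their transcribed start but not what lies before it. Rps27 lies at chr3:90213629-90213708 (minus strand) and Rps27rt at chr9:114982720-114982799 (minus). The frame is the same, 60 bases before and 20 from the start, with the run marked in capitals as above.
Rps27: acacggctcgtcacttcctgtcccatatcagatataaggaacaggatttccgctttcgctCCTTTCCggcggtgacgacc
Rps27rt: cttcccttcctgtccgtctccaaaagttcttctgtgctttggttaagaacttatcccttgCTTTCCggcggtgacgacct

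From base 2 of Rps27 and base 1 of Rps27rt, 38 bases in a row were the same. Before the start the longest shared stretch was 10 bases.

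Total counts per library were 19430860 to 46041277. The 8 pluripotency markers summed to 2630 to 2850 CPM (read counts scaled to a common library total) in ESC WT and to 121 to 123 in NPC WT. The neural progenitor markers (8 genes, none at 0 in any group) summed to 380 to 391 in ESC WT and to 479 to 485 in NPC WT. Of these, 7 were called higher and 0 lower (median log2 change 1.32), and the sum mostly reflects the most abundant ones. Endoderm markers rose more in sum, from 117 to 125 in ESC WT to 467 to 484 in NPC WT. As for the neural progenitor markers, 7 of 8 were called higher (median 2.83). Neuron markers summed to 394 to 469 in ESC WT and to 265 to 269 in NPC WT, with 5 of 8 called higher and 3 lower. Kmt2b and Kmt2c mRNA was present in every group (172 to 212 and 166 to 322 CPM as group means), as was Kmt2d. A degron acts on protein, so these levels do not check the labels. Replicate 2 of ESC WT stood apart from the other 2 in ribosomal protein levels, and results that rest on it are given without it.

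The 85 genes together took the largest share of counts in ESC WT and the smallest in NPC MLL2dTAG. The share was 3.47%, 2.86% and 3.24% in the ESC WT libraries (3.19% ± 0.308, SD, n = 3). It was 3.13%, 3.05% and 3.14% in ESC dCD (3.11% ± 0.0493), inside the WT range. In ESC MLL2dTAG it was 2.68%, 2.58% and 2.42% (2.56% ± 0.131), below every WT library. Both edited lines were below WT in NPC, without overlap. NPC WT libraries held 2.38%, 2.30% and 2.37% (2.35% ± 0.0436), and NPC dCD libraries 1.93%, 1.80% and 1.89% (1.87% ± 0.0666). NPC MLL2dTAG libraries held 1.84%, 1.78% and 1.75% (1.79% ± 0.0458). Mitochondrial ribosomal protein genes, the nearest comparable group, took 0.299%, 0.298% and 0.3% in NPC WT, dCD and MLL2dTAG. Other protein coding genes with transcripts under 1000 bases took 2.69% in NPC WT, 2.89% in dCD and 2.83% in MLL2dTAG. Neither of these shares was lower in the edited NPC by more than the replicate SD. These are shares of sequenced mRNA in bulk samples, so fewer cells of a type and less RNA per cell cannot be told apart.

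**Figure D1:**
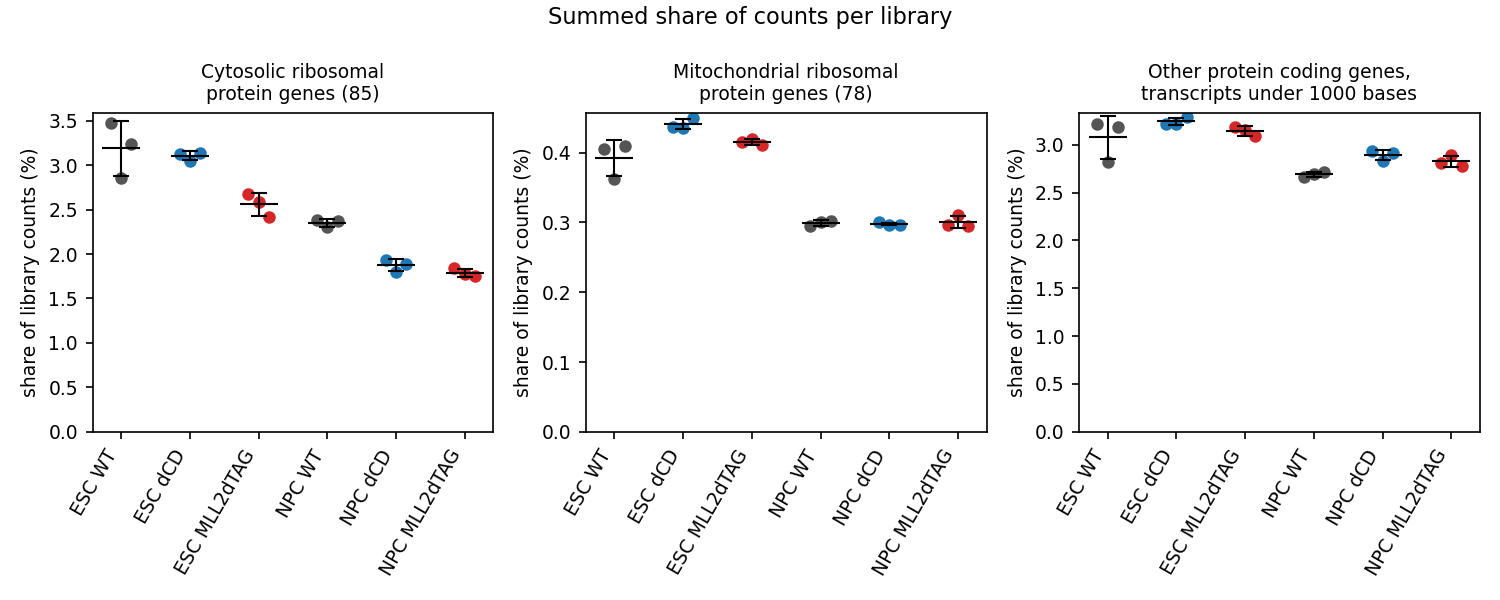
Share of each library's counts (%) held by cytosolic ribosomal protein genes, mitochondrial ribosomal protein genes and other short protein coding genes, by group. Points are libraries (replicates 1 to 3 from left to right) and bars are mean ± SD (n = 3); only in the first panel do the NPC dCD and NPC MLL2dTAG libraries (1.75% to 1.93%) lie below all NPC WT libraries (2.30% to 2.38%).

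In ESC MLL2dTAG nearly the whole family fell. A gene is called here when its Benjamini-Hochberg adjusted p from edgeR's quasi-likelihood test over all 20511 genes tested was under 0.05. Of 84 members 77 fell and 0 rose, where 28.2% of all genes tested were called lower and 28.7% higher. The median log2 fold change was -0.33 for the members and -0.00 for all genes tested, and the middle 50% of members lay between -0.37 and -0.27. The 2 subunits had nearly the same medians, -0.33 for large and -0.32 for small subunit members. In 62 members no MLL2dTAG library reached the lowest WT library (29.7% of all genes), and 42 fell by at least 1.25-fold (20.7% of all genes). Without ESC WT replicate 2 the median was -0.40.

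The members that fell most in ESC MLL2dTAG, among those whose groups did not overlap, were Rpl36, Rpl22, Rpl26, Rpl12 and Rps10. Rpl22, a large subunit protein that also binds RNA outside the ribosome, was at 555, 460 and 524 CPM in the WT libraries and at 368, 359 and 336 in MLL2dTAG. All MLL2dTAG values were below the lowest WT value, and the log2 change was -0.53 (SE 0.04, adjusted p 5.1e-13). Rpl12, at the base of the ribosomal stalk, was at 765, 626 and 692 CPM in WT and at 528, 502 and 461 in MLL2dTAG. It fell by 0.48 (SE 0.05) on the log2 scale, again with no overlap. Rpl36 was at 170, 132 and 174 CPM in WT and at 114, 104 and 103 in MLL2dTAG (log2 change -0.57, SE 0.08). The lowest WT library of Rpl36 was replicate 2, as for Rpl22 and Rpl12. Rpl26 fell by 0.50 and the small subunit gene Rps10 by 0.47 (each SE 0.05). The 7 members not called were Rplp0, Rpl24, Rpl36al, Rps4l, Rps27rt, Rpl6l and Rps3a2.

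In ESC dCD the members lay near WT with all libraries in the fit. Of 84 members 1 rose and 11 fell, 13.1% called lower against 22.6% of all genes tested (25.7% were called higher), and the median log2 change was -0.04 (0.02 for all genes). No called member fell by 1.25-fold, as 14.3% of all genes did. Only Rps29, Rpl12 and Rps20, of the 11, had groups that did not overlap (24.8% of all genes were lower without overlap). Rps20, in the head of the small subunit, was at 607, 523 and 564 CPM in WT and at 506, 496 and 521 in dCD, each dCD value just under the lowest WT value. Its log2 change was -0.15 (SE 0.04, adjusted p 0.0031 by edgeR quasi-likelihood). Rpl12 fell by 0.20 (SE 0.05) to 608, 590 and 614 CPM. Rps29 was at 134, 128 and 129 CPM against 158, 136 and 162 (log2 change -0.22, SE 0.07). The number called and its direction rest on the WT libraries. Without ESC WT replicate 1 the split turned to 13 higher and 6 lower (median 0.02), and without replicate 2 it was 0 higher and 51 lower (median -0.12). Of all genes, 5141 of 21176 were higher and 4474 lower without replicate 1, and 4936 of 21174 higher and 4329 lower without replicate 2. Without replicate 3, 7 members were called in all. Without ESC dCD replicate 2 the number was 6, against 12 with all libraries. Offsets for transcript length and GC content gave 5 members higher and 42 lower, with a median of -0.10. Of all genes, 4556 of 19697 were then higher and 5474 lower, with a median of -0.02.

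In NPC dCD the family fell. Of 84 members 76 fell and 1 rose, where 26.8% of all genes were called lower and 26.7% higher, and the median log2 change was -0.32 against -0.02 for all genes. In 77 members no dCD library reached the lowest WT library (30.5% of all genes), and 40 fell by at least 1.25-fold (17.3% of all genes). The lowest changes among called members without overlap were Rpl36 (-0.54, SE 0.09), Rpl39 (-0.51, SE 0.06), Rpl36a (-0.48, SE 0.06), Rps4x (-0.43, SE 0.04) and Rpl22 (-0.42, SE 0.04). Rpl36 was at 122, 131 and 124 CPM in WT and at 106, 73.2 and 80.9 in dCD, so that 1 dCD library was far closer to WT than the other 2. Rpl39, a small protein that lines the exit tunnel for new peptides, was at 86.7, 82.3 and 85.2 CPM in WT and at 62.0, 58.6 and 57.4 in dCD. These groups were well apart. Rpl27, Rpl24, Rpl36al, Rps27rt, Rpl37rt, Rpl6l and Rps3a2 were not called.

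In NPC MLL2dTAG 76 of 84 members fell and 2 rose, where 28.4% of all genes were called lower and 33.3% higher. The median log2 change was -0.31 against 0.03 for all genes. In 77 members the groups did not overlap downward (31.5% of all genes), and 35 fell by at least 1.25-fold (22.3% of all genes). Among called members Rpl22 had the lowest change, from 397, 386 and 397 CPM in WT to 269, 271 and 260 (log2 change -0.56, SE 0.04, adjusted p 9.0e-14 by edgeR quasi-likelihood). Rpl3, which reaches to the peptidyl transferase centre, was at 553, 530 and 548 CPM in WT and at 399, 379 and 376 in MLL2dTAG (-0.50, SE 0.04). For both genes the highest MLL2dTAG library was far below the lowest WT library. Rps12 and Rpl36 each fell by 0.43 and Rps23 by 0.42. The 2 members that rose, Rps4l and Rpl36al, are described below. The dCD and MLL2dTAG comparisons of a stage share their 3 WT libraries, so their values stand side by side and are not independent.

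**Figure D2:**
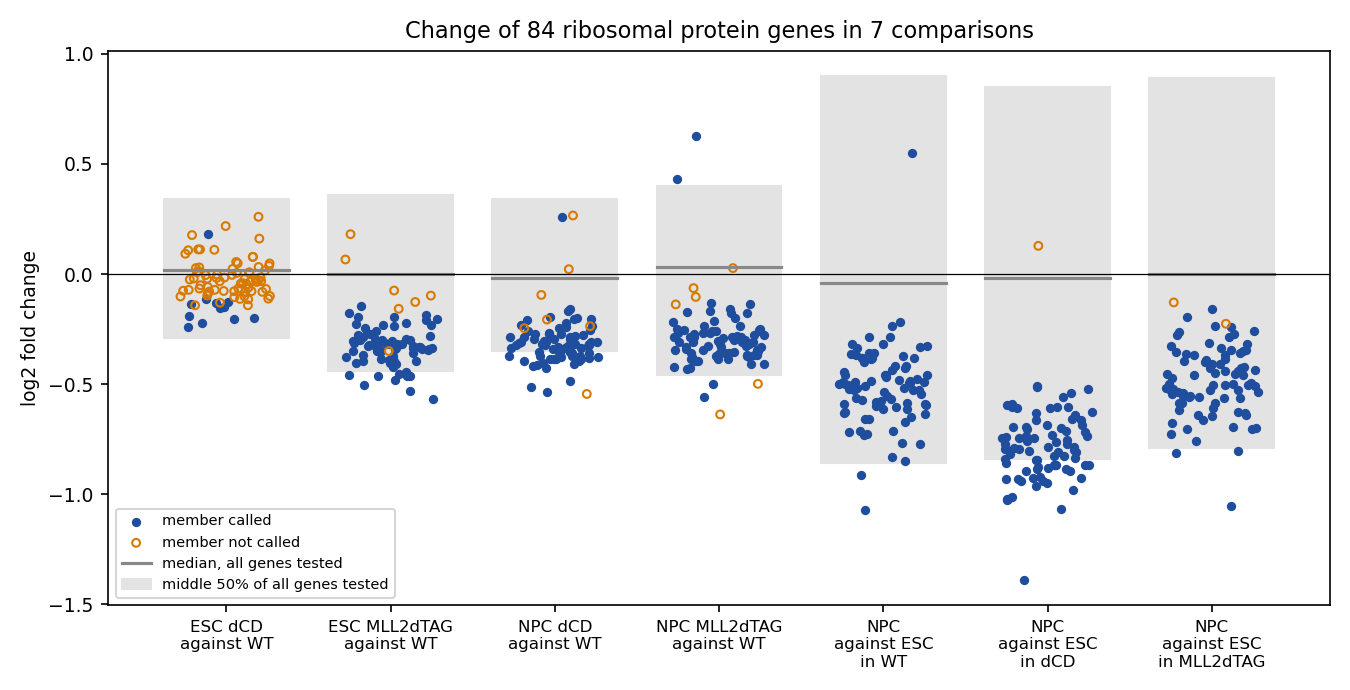
Log2 fold change of the 84 tested members in 4 comparisons with WT and 3 comparisons of NPC with ESC. Filled points are called members, open points are not called, and grey boxes and lines give the middle 50% and the median of all 20511 genes tested; members lie near 0 in ESC dCD (median -0.04) and mostly below 0 in the other 6 comparisons.

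Differentiation went with lower family levels in every genotype, though with length and GC offsets the WT median was near that of all genes. In WT 83 of 84 members were called lower in NPC than in ESC and 1 higher, where 40.4% of all genes were called lower and 39.1% higher. The median log2 change was -0.50 (-0.04 for all genes), 81 members had no overlap downward (40.1% of all genes), and 77 fell by at least 1.25-fold (35.4% of all genes). The 1 called higher was the low-level retrocopy Rps27rt. In dCD 83 were lower and 0 higher (39.0% of all genes lower and 38.7% higher), with a median of -0.79; all 83 had no overlap (39.7% of all genes) and fell by at least 1.25-fold (34.2%). In MLL2dTAG 82 were lower and 0 higher (38.3% of all genes lower and 39.9% higher), with a median of -0.50; 82 had no overlap (39.6%) and 71 fell by at least 1.25-fold (33.3%). Short transcripts in general were also lower in NPC: the median of genes under 1000 bases was -0.26 in WT. When GC content and transcript length entered the fit as offsets, 40 members fell and 9 rose in WT (median -0.10). In dCD 71 fell and 2 rose (median -0.33), and in MLL2dTAG 51 fell and 7 rose (median -0.18). All genes had medians of -0.08, -0.04 and -0.04 under these offsets. In WT 8339 of 19697 genes were then called lower and 7411 higher.

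Rpl12 had one of the lowest WT changes, from 765, 626 and 692 CPM in ESC to 385, 383 and 388 in NPC (log2 change -0.85, SE 0.05). Rpl4, which helps line the exit tunnel, was at 1260, 1200 and 1210 CPM in NPC WT against 2340, 1890 and 2050 in ESC WT (-0.77, SE 0.04). Neither gene overlapped between stages. Rpl13a fell by 0.83 and Rpl27 by 0.73. The lowest values of all belonged to the low-level gene Rpl36al (-1.07, SE 0.14) and to Rps4l (-0.91, SE 0.07). At the other end Rpl15 was at 345, 275 and 311 CPM in ESC WT and at 268, 262 and 269 in NPC WT, close together but without overlap. Its log2 change was -0.22 (SE 0.05), but 0.18 with the length and GC offsets. Rps14, Rpl41, Rps19 and Rps27 had the next smallest falls among members without overlap. Of these, Rps14, Rpl41 and Rps27 also turned upward with the offsets (0.19, 0.21 and 0.20). In the edited lines Rps2, at the entry of the mRNA channel, was among the lowest between stages. It went from 677, 640 and 666 CPM in ESC dCD to 342, 314 and 318 in NPC dCD (-1.03, SE 0.06), and from 617, 572 and 534 in ESC MLL2dTAG to 334, 325 and 326 in NPC MLL2dTAG (-0.81, SE 0.06). No NPC library came near the ESC libraries of its line. Rpl4 and Rpl8 fell by 1.02 and 1.01 in dCD and by 0.76 and 0.71 in MLL2dTAG. In genotype comparisons within a stage, short transcripts in general did not have lower medians. Genes under 1000 bases had medians of 0.02 to 0.08 there, and the offsets left the median of the members below 0 in ESC dCD, ESC MLL2dTAG, NPC dCD and NPC MLL2dTAG (-0.10, -0.30, -0.33 and -0.35).

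Whether the genotype change differed between stages was tested as an interaction. For dCD 67 of 84 members were called lower and 0 higher (22.9% of all genes were called lower). For these 67 the change against WT was lower in NPC than in ESC. The median difference was -0.29 on the log2 scale (-0.04 for all genes). Among the lowest were Rpl35 and Rpl10 (each -0.42). Rpl10, a late-joining protein of the large subunit, was at 509, 413 and 465 CPM in ESC WT and at 490, 473 and 512 in ESC dCD, which overlapped. In NPC it was at 364, 348 and 351 in WT and at 288, 279 and 279 in dCD, with no overlap (-0.33, SE 0.05). Without ESC WT replicate 2 the median difference was -0.21.

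For MLL2dTAG 7 of 84 members were called higher (26.4% of all genes) and 1 lower (22.6%) in the interaction, with a median difference of 0.02. Those called higher were Rps4l and Rpl36al (each 0.56), Rps29 (0.27), Rpl34 (0.26), Rpl12 (0.22), Rpl27 (0.20) and Rpl10a (0.15). Rpl7a was called lower (-0.17). The number called was 8 with all libraries and 5 without ESC MLL2dTAG replicate 2 or NPC MLL2dTAG replicate 1. Without ESC WT replicate 2, 27 were higher and 0 lower, whereas without ESC WT replicate 1, 6 were higher and 13 lower. Of all genes, 5414 of 21174 were higher and 4683 lower without replicate 2, and 5341 of 21176 higher and 4566 lower without replicate 1. Other settings also turned the split of the members. With library totals as the only scaling, 3 were higher and 12 lower. The counts were 3 and 16 without a filter on low counts, and 5 and 16 with correction for transcript length and GC content.

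**Figure D3:**
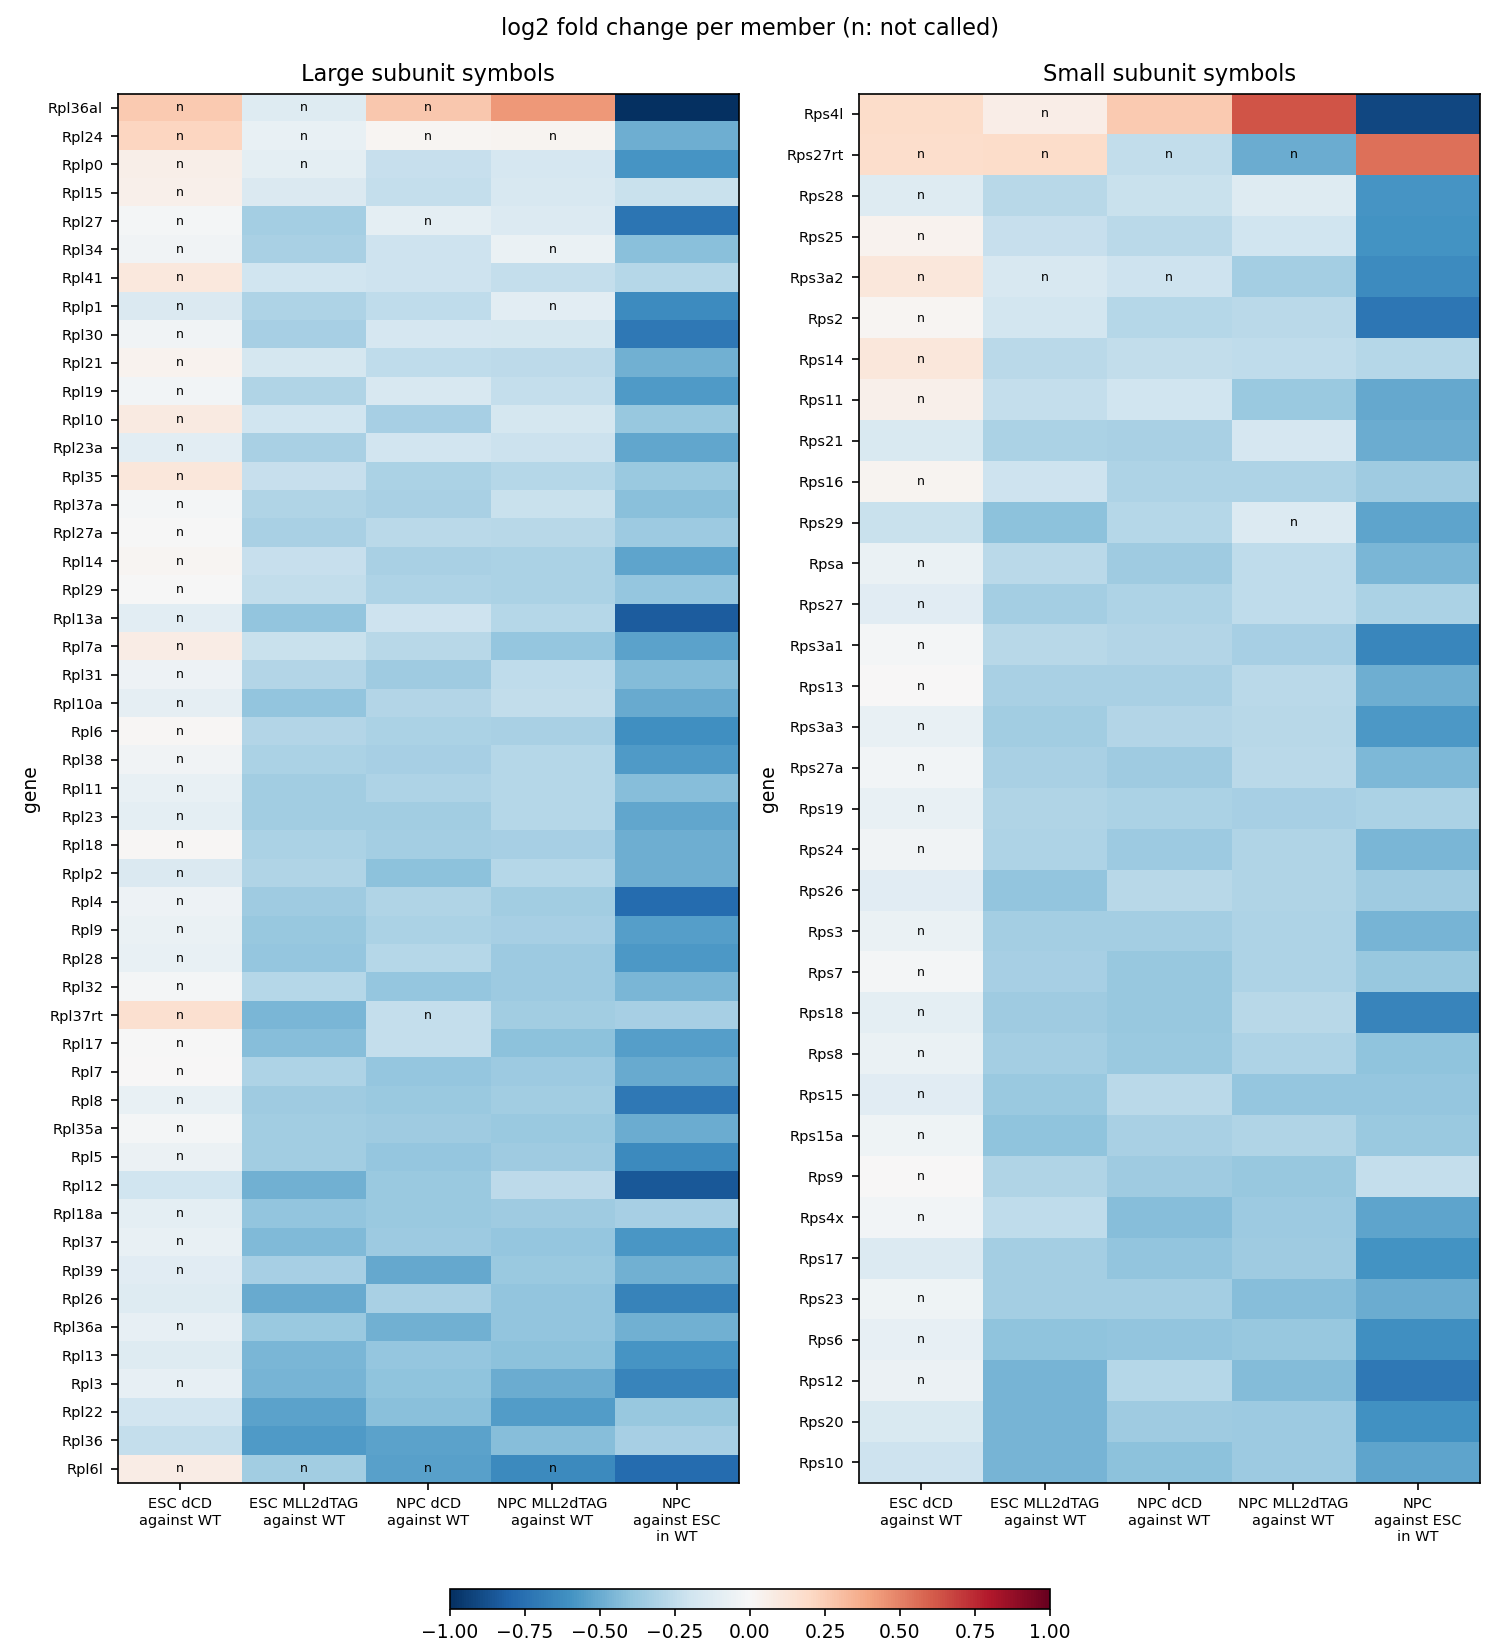
Log2 fold change of 83 of the 84 tested members in 5 comparisons, large subunit symbols at left and small subunit symbols at right, ordered by the mean of the 3 comparisons ESC MLL2dTAG, NPC dCD and NPC MLL2dTAG. The colour scale runs from -1 to 1 (Rpl36al in WT NPC against ESC, -1.07, lies past its end) and n marks a change that was not called; most cells of ESC dCD carry n, and in NPC MLL2dTAG Rps4l (0.63) and Rpl36al (0.43) are red where most of the family is blue.

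The stalk that recruits elongation factors is built from Rplp0, Rplp1 and Rplp2. Rplp0 was at 607, 481 and 555 CPM in ESC WT, 580, 557 and 569 in ESC dCD, and 534, 512 and 488 in ESC MLL2dTAG. These ESC groups overlapped and neither line was called. In NPC it was at 361, 364 and 364 in WT, 332, 289 and 306 in dCD (log2 change -0.23, SE 0.05), and 324, 315 and 329 in MLL2dTAG (-0.17, SE 0.05), both without overlap. Rplp1 fell in ESC MLL2dTAG (-0.31) and NPC dCD (-0.26) and was not called in NPC MLL2dTAG (238 ± 4.35 CPM against 255 ± 4.72 in WT, adjusted p 0.21 by edgeR quasi-likelihood). Rplp2 fell in all 3 of these comparisons, by 0.30, 0.41 and 0.29. None of the 3 stalk genes was called in ESC dCD.

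Rpl5 and Rpl11 bind 5S rRNA and, outside the ribosome, the p53 regulator Mdm2. Rpl5 was at 443, 382 and 403 CPM in ESC WT and 345, 324 and 297 in ESC MLL2dTAG. In NPC it was at 270, 259 and 262 in WT, 209, 195 and 201 in dCD, and 211, 203 and 205 in MLL2dTAG. Each of these edited groups lay below its WT group, with log2 changes of -0.35, -0.39 and -0.35 (each SE 0.04). Rpl11 changed alike, by -0.35, -0.31 and -0.29 (each SE 0.06).

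Further large subunit members, some of them at the catalytic centre and tunnel, followed the family. Rpl3 fell by 0.46 in ESC MLL2dTAG, 0.40 in NPC dCD and 0.50 in NPC MLL2dTAG. Rpl10 fell by 0.20, 0.33 and 0.18. Rpl39 fell by 0.33, 0.51 and 0.37. Rpl41, which encodes the smallest ribosomal protein, fell by 0.20, 0.21 and 0.24, and Rpl38, needed in mice for axial patterning, by 0.32, 0.34 and 0.29. In ESC dCD none of these 5 genes was called.

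Among small subunit proteins, Rps6 is the target of S6 kinases and Rps19 the gene most often mutated in Diamond-Blackfan anaemia. Rps6 was at 365, 294 and 330 CPM in ESC WT and 261, 255 and 232 in ESC MLL2dTAG. In NPC it was at 218, 206 and 221 in WT, 169, 161 and 162 in dCD, and 170, 165 and 163 in MLL2dTAG. The log2 changes were -0.40, -0.39 and -0.38 (each SE 0.05), with no overlap in any of the 3. Rps19 fell by 0.30, 0.32 and 0.33 in the same order. Rpsa, also known as a laminin receptor, fell by 0.27, 0.36 and 0.25.

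Rps4x, Rpl36a, Rpl10 and Rpl39 lie on the X chromosome, and 3 of them were among the 5 lowest members in NPC dCD. This grouping was made after the values were seen. Rpl10, not among those 5, lay near the family median of -0.32 in NPC dCD. In NPC MLL2dTAG it fell less than the family median of -0.31. Rps4x was at 857, 740 and 801 CPM in ESC WT, 793, 764 and 793 in ESC dCD, and 694, 677 and 635 in ESC MLL2dTAG. In NPC it was at 570, 538 and 555 in WT, 414, 410 and 412 in dCD, and 445, 422 and 427 in MLL2dTAG. The dCD NPC libraries differed from each other by less than 5 CPM and lay far below WT, whereas ESC dCD lay within the WT range. Rpl36a fell by 0.37 in ESC MLL2dTAG, 0.48 in NPC dCD and 0.39 in NPC MLL2dTAG.

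**Figure D4:**
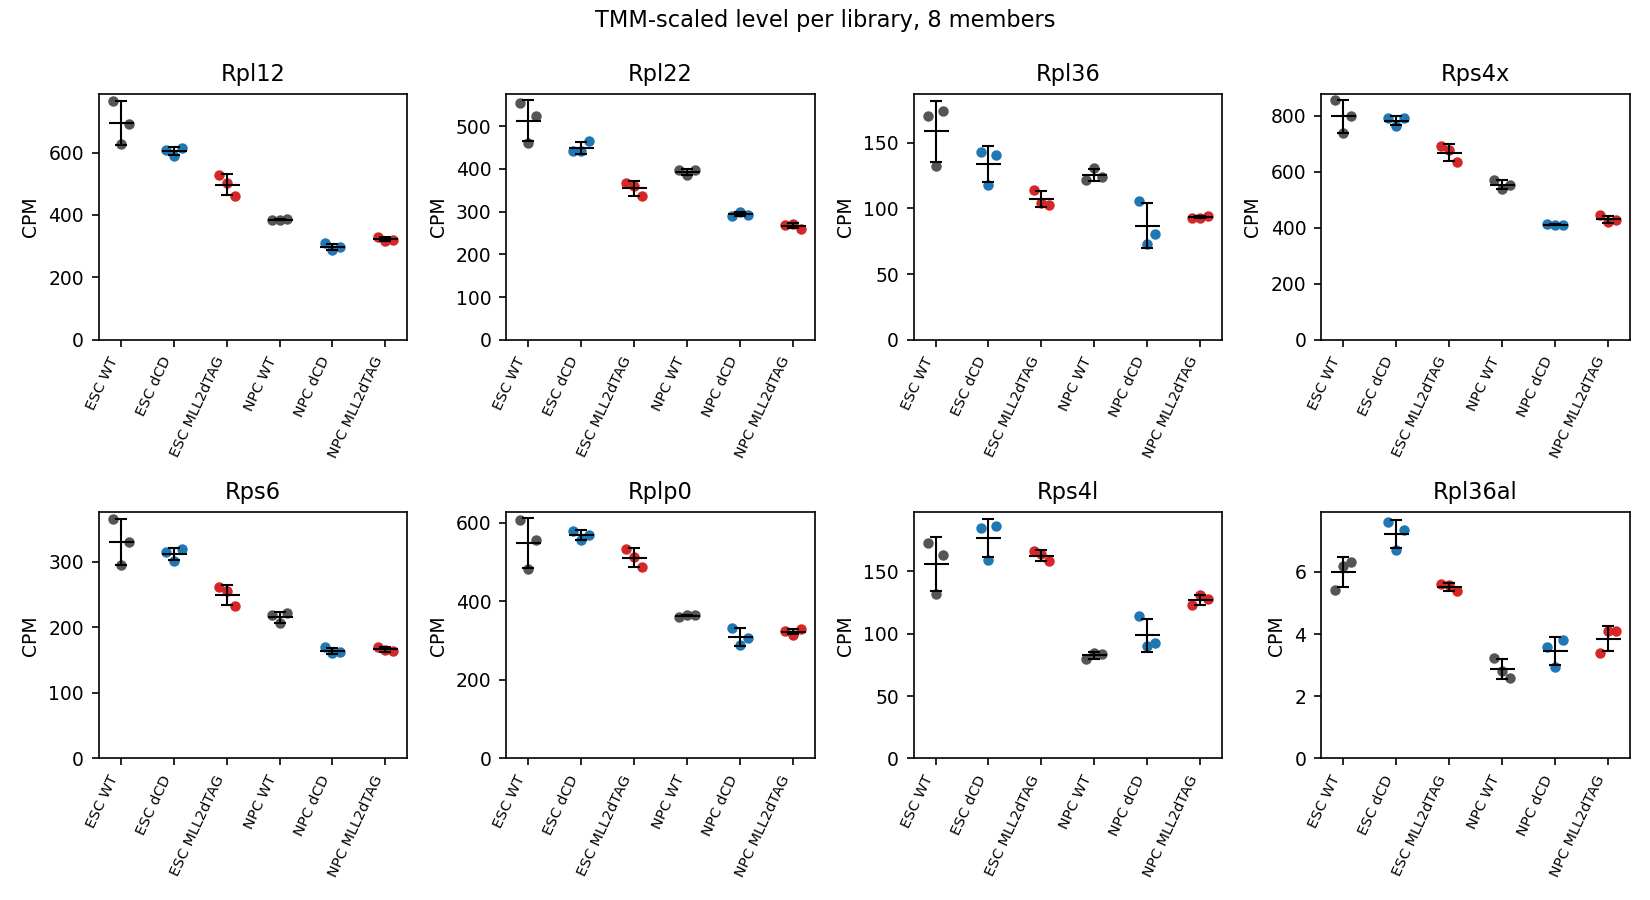
Level of 8 members in every library (CPM, TMM scaled, each axis from 0). Points are libraries (replicates 1 to 3 from left to right) and bars are mean ± SD (n = 3); Rpl12, Rpl22, Rpl36, Rps4x, Rps6 and Rplp0 are lower in both edited NPC groups than in NPC WT, while Rps4l is higher in NPC MLL2dTAG (127 ± 4.34 CPM) than in NPC WT (82.6 ± 2.85).

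Rps4l, an annotated pseudogene, went against the family in the comparisons with WT, though not between stages. It shares 14.88% of its 50-base words with the gene Rps4l-ps and none with any other gene. It was at 173, 132 and 163 CPM in ESC WT, 185, 159 and 186 in ESC dCD, and 166, 164 and 158 in ESC MLL2dTAG. In NPC it was at 79.4, 84.9 and 83.4 in WT, 114, 90.0 and 92.4 in dCD, and 123, 131 and 128 in MLL2dTAG. It rose in ESC dCD (0.18, SE 0.07, groups overlapping), NPC dCD (0.26, SE 0.07) and NPC MLL2dTAG (0.63, SE 0.07), the last 2 without overlap. The ESC dCD call was lost under DESeq2, with only the groups compared in the fit, and without ESC WT replicate 2 or ESC dCD replicate 1 or 3. In NPC dCD, leaving out dCD replicate 1 gave 0.14 with an adjusted p of 0.085 (edgeR quasi-likelihood), which is not called. Rpl36al, a close relative of Rpl36a, was measured at low levels: 3.23, 2.80 and 2.60 CPM in NPC WT and 3.38, 4.09 and 4.10 in NPC MLL2dTAG (0.43, SE 0.14, adjusted p 0.0070 by edgeR quasi-likelihood). Its NPC MLL2dTAG libraries were all above WT, by as little as 0.15 CPM.

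Levels between genes are comparable only per length, here as CPM per kilobase of transcript. In ESC WT they ranged from 1.31 (Rpl6l) to 1360 (Rpl4) with a median of 402. The 6 members under 20 CPM per kilobase were Rpl37rt, Rps3a2, Rpl36al, Rpl24, Rps27rt and Rpl6l. Rpl24 encodes a core ribosomal protein, yet it lay at 6.37 to 7.13 CPM in the ESC WT libraries, and 81.69% of its 50-base words occur in another annotated gene. Rps27rt, at 4.55 CPM per kilobase, had 34 to 119 counts per library and was called only between WT stages (0.55, SE 0.26, groups overlapping). Rps27, with which it shares most of its words, fell with the family (-0.34 in ESC MLL2dTAG, -0.31 in NPC dCD and -0.26 in NPC MLL2dTAG).

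Shared sequence limits the assignment of reads for most of the family. Of the 85 members 84 share at least 1 word of 50 bases with another gene and 45 share more than 50% of their words (median 52.9%), so single-gene values are uncertain where reads could be split between copies. The changes are given here by the amount shared, and the part of read assignment in them was not tested. Among the 4 members with up to 10% of words shared, all 4 fell in ESC MLL2dTAG (median -0.35), NPC dCD (-0.36) and NPC MLL2dTAG (-0.33). Among the 44 tested members with over 50% shared, 39, 38 and 39 fell, with medians of -0.33, -0.32 and -0.32. Of 74 processed copies tested, 10, 15 and 16 fell and 4, 1 and 3 rose in the same comparisons. That is 13.5%, 20.3% and 21.6% called lower, against 28.2%, 26.8% and 28.4% of all genes. All 265 copies together held only 0.0307% of counts in ESC WT, and low counts limit how many can be called. Their summed share was 0.0253% in ESC MLL2dTAG. In NPC it was 0.0243% in WT, 0.0203% in dCD and 0.018% in MLL2dTAG. The medians of the copies were -0.19, -0.30 and -0.34.

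Members with and without the pyrimidine run shown above had similar medians. In ESC MLL2dTAG they were -0.32 (28 members) and -0.33 (32 members), in NPC dCD -0.33 and -0.32, and in NPC MLL2dTAG -0.29 and -0.31. For the WT stage comparison they were -0.49 and -0.51.

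Other genes of the protein synthesis pathway, from lists chosen for their known roles, were counted with the same calls. They are read against the shares of all genes called lower and higher: 28.2% and 28.7% in ESC MLL2dTAG, 26.8% and 26.7% in NPC dCD, 28.4% and 33.3% in NPC MLL2dTAG, and 22.6% and 25.7% in ESC dCD. Of 3 core ribosomal protein genes outside the naming rule, 2 were called lower, 0 higher and 1 neither way in each of ESC MLL2dTAG, NPC dCD and NPC MLL2dTAG. Rack1 fell by 0.32, 0.39 and 0.32, and Fau by 0.36, 0.31 and 0.46. Of 20 translation factors and other TOP mRNAs, 16 fell and 1 rose in ESC MLL2dTAG (median -0.23), 14 fell and 3 rose in NPC dCD (-0.17), and 14 fell and 4 rose in NPC MLL2dTAG (-0.25). Eef2, the elongation factor of translocation, fell by 0.61, 0.37 and 0.46, and Eif4b by 0.55, 0.74 and 0.59. In ESC dCD 6 of the 20 fell and 6 rose. Eif4g1, the scaffold of the cap-binding complex, rose by 0.29, 0.36 and 0.47.

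Most assembly factors did not fall with the proteins they assemble. Of 33, 26 rose and 1 fell in NPC MLL2dTAG (median 0.45, with Rrp12 at 1.05 and Rrs1 at 0.95), where 33.3% of all genes were called higher. In NPC dCD 17 rose and 11 fell (median 0.14), in ESC MLL2dTAG 12 rose and 8 fell (0.03), and in ESC dCD 25 rose and 1 fell (0.19). Npm1, an abundant nucleolar protein, fell by 0.28 in ESC MLL2dTAG, 0.39 in NPC dCD and 0.36 in NPC MLL2dTAG. Between stages all 33 were lower in NPC WT (median -1.13), more than the members' -0.50. RNA polymerase I genes, which supply the enzyme for rRNA, were 10 higher and 2 lower of 15 in ESC MLL2dTAG, 3 and 7 in NPC dCD, and 10 and 3 in NPC MLL2dTAG.

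Mitochondrial ribosomal protein genes, the most similar family, were more often called higher than lower in both MLL2dTAG comparisons, near the all-gene shares in both directions in NPC dCD, and mostly lower between WT stages. Of 77 tested, 28 rose and 7 fell in ESC MLL2dTAG (median 0.10), 23 rose and 22 fell in NPC dCD (-0.00), and 33 rose and 10 fell in NPC MLL2dTAG (0.10). In ESC dCD 42 rose and 6 fell. Between WT stages 52 fell and 7 rose in NPC (median -0.32).

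**Figure D5:**
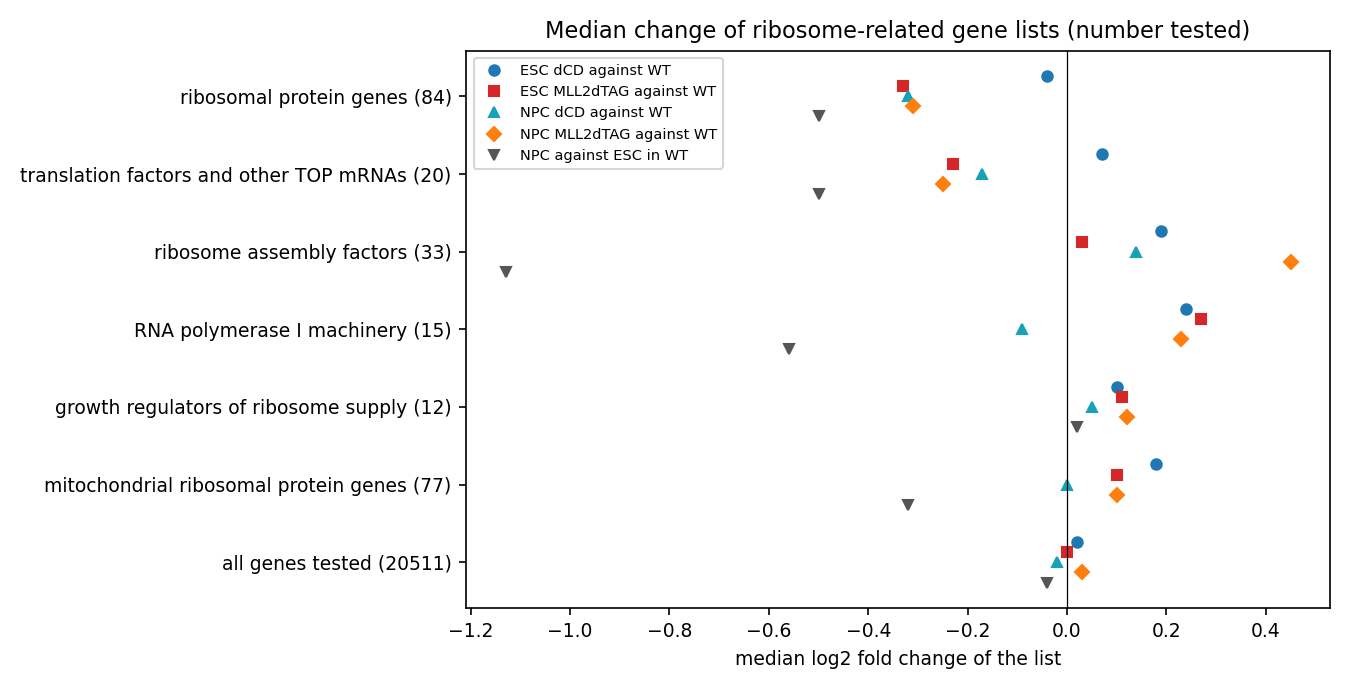
Median log2 fold change of the ribosomal protein genes, 5 related lists and all genes tested in 5 comparisons, with the number of genes tested in parentheses. The medians of the ribosomal protein genes are -0.33, -0.32 and -0.31 in ESC MLL2dTAG, NPC dCD and NPC MLL2dTAG, while those of assembly factors are 0.03, 0.14 and 0.45.

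Of 12 regulators of ribosome supply, 6 rose and 4 fell in ESC MLL2dTAG, 4 and 3 in NPC dCD, and 6 and 4 in NPC MLL2dTAG. In NPC dCD these counts are near the all-gene shares of 26.7% higher and 26.8% lower. Myc, a transcription factor that acts on many ribosome genes, rose by 2.43, 1.27 and 1.15, and by 2.06 in ESC dCD, where the members had a median of -0.04. Mycn fell by 1.21 in NPC dCD and was called higher in ESC dCD (0.44) and NPC MLL2dTAG (0.11). Larp1, which binds TOP mRNAs, fell by 0.68 in ESC MLL2dTAG and 0.31 in NPC MLL2dTAG and was not called in dCD at either stage.

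Markers of other cell types moved with some of these comparisons. In NPC MLL2dTAG all 8 pluripotency markers were called higher, with a summed level of 310 to 317 CPM against 121 to 123 in NPC WT, and all 8 endoderm markers, with 978 to 1010 against 467 to 484. In NPC dCD 6 of 8 neural progenitor markers were called higher (899 to 983 CPM against 479 to 485) and 6 of 8 endoderm markers lower (326 to 335). Fibroblast and mesenchyme markers were called higher in 8 of 8 in ESC dCD (807 to 898 CPM against 502 to 622 in ESC WT) and in ESC MLL2dTAG (885 to 939). In NPC they were called higher in 6 of 8 in dCD (1420 to 1540 CPM) and in 5 of 8, with 3 lower, in MLL2dTAG (1290 to 1310), against 740 to 759 in NPC WT. Pluripotency markers were called higher in 7 of 8 in ESC MLL2dTAG (3260 to 3430 CPM against 2630 to 2850). In ESC dCD 6 of 8 neural progenitor markers were called higher and 5 of 8 endoderm markers lower. None of the markers of these 4 lists was at 0 in any group. The part of cell composition in the members' changes was not tested.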

How the data were processed

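Values are whole read counts by gene symbol, as deposited, without normalization. HTSeq is named in the submitters' processing notes, without a version; for these libraries an aligner and a genome build are not given in the sources used here. Libraries were made with a TruSeq stranded mRNA kit, per the labels' protocols. Columns were matched to samples by name, and 18 per-sample columns were not used because their names match no sample or more than 1. Of 36 samples, 18 were used and the others are not analysed here.

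In R 4.3.3, edgeR 4.0.16 (filterByExpr, TMM) kept 20511 genes. All 18 libraries entered 1 quasi-likelihood fit with a mean for each of the 6 groups, two-sided F tests, Benjamini-Hochberg adjustment over all genes and a threshold of 0.05. SE was taken from the log2 change and the F statistic. CPM use TMM factors. Interactions are the NPC change minus the ESC change. DESeq2 1.42.0, other scalings, no filter, a replicate block, offsets for GC content and length (mgcv 1.9.3, GENCODE M21) and leaving out each library were alternatives. Scripts were tested on simulated data.

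Counts of whole reads are not independent molecules, and low counts were more often even (60.8% to 66.5% of counts from 1 to 10). All 37 mitochondrial genome genes were at 0. The chi-square between replicates, divided by its degrees of freedom, was 2.19 to 10.6, and no library was counted as a repeat of another.

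The members and lists were chosen with earlier results of these data known. Members were singled out per comparison as the 5 highest and 5 lowest called changes with group means averaging at least 5 CPM and groups that did not overlap (3 and 3 for interactions), besides 16 members described throughout. Groups of genes are described by counts and medians, with no test of a list. The separate values of 2 genes are not reported here.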

Additional observations from a re-analysis of the deposited data

Results flagged for a closer look

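The change of the dCD line against WT differed between stages in 67 members by the interaction test of edgeR, all with a lower change in NPC. Among the lowest were Rpl35 (-0.42) and Rpl10 (-0.42) on the log2 scale, and those nearest 0 were Rps26, Rpl34 and Rpl12 (each -0.17). The call of Rps26 was lost under 11 of the other settings, that of Rpl12 under 6 and that of Rpl34 under 5.

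The change of MLL2dTAG against WT differed between stages in 8 members. Rps4l (0.56), Rps29 (0.27) and Rpl34 (0.26) had a higher change in NPC and Rpl7a (-0.17) a lower one. The calls of Rps29 and Rpl7a were each lost under 7 of the other settings.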

How the results depend on the processing

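In ESC MLL2dTAG, NPC dCD and NPC MLL2dTAG, the number of members called stayed within 1.5 times of 77, 77 and 78 under every setting tried, and leaving out 1 library gave 74 to 78, 76 to 77 and 76 to 79.

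Under offsets for GC content and length, 49 members were called between WT stages (median -0.10, against -0.08 for all genes). The stage medians were -0.33 in dCD and -0.18 in MLL2dTAG (all genes -0.04 in each). In ESC dCD 47 members were called, and 21 in the MLL2dTAG interaction (median -0.06). Single members turned upward there: in WT Rpl15 0.18, Rps14 0.19, Rpl41 0.21, Rps27 0.20 and Rpl10 0.03; in dCD Rps27 0.10; in MLL2dTAG Rpl34 0.24, Rpl36 0.19, Rpl15 0.10, Rps27 0.12, Rps26 0.06, Rplp1 0.04 and Rpl41 0.09. Upper quartile scaling gave medians of -0.40 in NPC MLL2dTAG and -0.58, -0.88 and -0.62 between stages in WT, dCD and MLL2dTAG (all genes shifted by -0.11 in the last). Library totals gave -0.39 in NPC MLL2dTAG, -0.42 and -0.71 between WT and dCD stages, and 15 called in the MLL2dTAG interaction (-0.07). Without a filter the stage medians were -0.40 in WT and -0.69 in dCD, and the interaction had 19 (-0.08). DESeq2 called 5 in ESC dCD. The cause was not tested.

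Leaving out 1 library gave 6 to 51 called in ESC dCD (median -0.12 to 0.02), 5 to 27 in the MLL2dTAG interaction (-0.05 to 0.10), and medians of -0.40 to -0.26 in ESC MLL2dTAG, -0.58 to -0.45 between WT stages and -0.35 to -0.21 in the dCD interaction. A group that lost a library kept 2, and the fit estimated 1 spread over all groups.

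A replicate block called 22 members in ESC dCD and otherwise 77 in ESC MLL2dTAG, 77 in NPC dCD, 79 in NPC MLL2dTAG, 82, 83 and 82 between stages in WT, dCD and MLL2dTAG, and 69 and 11 in the interactions. Deviations of log2 CPM from the group means correlated by -0.049 to 0.037 between same-numbered samples. Between other samples of the groups compared they correlated by -0.077 to 0.064. No sign of pairing by number was seen, but with 3 replicates per group this cannot settle it.

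For named members 2760 values kept direction and call, 75 lost the call and 13 reversed. With protein coding members only, an alternative chosen after seeing the data, 75, 75 and 74 of 78 were called in ESC MLL2dTAG, NPC dCD and NPC MLL2dTAG.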

Other observations

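Copies that the naming rule leaves out had a lower median change between WT stages than the members did. All 6 tested (Rpl10l, Rpl22l1, Rpl39l, Rpl3l, Rpl7l1 and Rps27l) were called lower in NPC WT than in ESC WT, as were 40.4% of all genes. Their median log2 change was -2.17 (range -4.24 to -0.30), against -0.50 for the members. Rpl39l, a relative of Rpl39 known from germ cells, fell by 3.45 and Rpl10l, a relative of the X-linked Rpl10, by 4.24. Against WT, Rpl39l rose by 0.60 (dCD) and 0.96 (MLL2dTAG) among ESC, and by 1.15 (dCD) and 3.64 (MLL2dTAG) among NPC. Its X-linked relative Rpl39 fell in all of these but ESC dCD, where it was not called. Rpl10l rose by 1.54 in NPC dCD, where Rpl10 fell.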
